A study of Mus musculus with 2 samples.

Results

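Neurotrophins, Gdnf and their receptors were followed as 8 genes in the facial prominences of the mouse embryo at day 13.5 of development. The ligands were Bdnf, Ntf3, Ntf5 and Gdnf, and the receptors were Ntrk2, Ntrk3, Ret and the co-receptor Gfra1. The genes were listed by name, taken from the deposited gene tables by identifier without version and named from the GENCODE annotation of GRCm38. All 8 had a row, among 43346 rows with a gene identifier and 21474 protein-coding genes. The facial prominences are the swellings that form the jaws, nose and palate, made of largely neural crest-derived mesenchyme under an epithelium, and at this stage they are being reached by sensory fibres of the trigeminal ganglion. Total RNA of this tissue, from healthy embryos of the strain B6NCrl with males and females pooled, was sequenced in 2 libraries that the labels number as biological replicates 1 and 2. The labels name no mutation, transgene or treatment. Each library has its own biosample identifier under a donor identifier common to both, and biosample and library cannot be told apart in the differences between them. Both libraries form 1 group, and no comparison between conditions and no test was possible. Levels are in TPM, a unit of transcript abundance that is per length and lets genes be set side by side, and errors are the SD between the libraries (n = 2).

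Neurotrophins are secreted growth factors made as proproteins that, once cleaved, keep sensory and sympathetic neurons alive and steer their axons and branching. Each binds a preferred receptor tyrosine kinase, with Bdnf and Ntf5 acting through Ntrk2 (TrkB) and Ntf3 mainly through Ntrk3 (TrkC). Gdnf binds Gfra1, a co-receptor tethered to the membrane by a lipid anchor, and the pair activates the kinase Ret, a system known for enteric, motor and sensory neurons and for the kidney. In the developing face the neurotrophins are known as products of epithelium and mesenchyme that meet ingrowing sensory axons, and the kinase receptors are known mostly from neurons, while truncated Trk receptors without a kinase are also made by non-neuronal cells.

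The libraries held 28542452 and 22719352 expected counts on gene rows in replicates 1 and 2. Markers of the labelled tissue were abundant: 10 of 10 facial mesenchyme genes, led by Col1a1 and Msx1, and 9 of 10 genes of the surface and oral epithelium, led by Krt14 and Krt5, reached 1 TPM in both libraries, with Shh the exception. Neural markers were present at lower summed levels. The sensory neuron list summed to 253.5 and 309.4 TPM with 13 of 21 genes detected, led by Gap43 and Stmn2. The Schwann cell and satellite glia list summed to 58.7 and 76.6 TPM with 7 of 10 detected, and the autonomic neuron list to 48.4 and 68.5 TPM with 4 of 11 detected, led by Gata2 and Gata3, which other tissues also express. Of the forebrain and brain list only Emx2 and Dcx were among the detected genes, 2 of 11, and Sox1 was at 0 in replicate 1. Muscle markers (10 of 10) and markers of endothelium and pericytes (9 of 10) were detected, as were 8 of 8 erythroid genes, which summed to 13693 and 18057 TPM. The libraries stood apart in liver markers, whose 10 genes summed to 15.6 TPM in replicate 1, with 2 of them at 0, and 389 TPM in replicate 2, and in heart markers, at 21.3 and 51.4 TPM.

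Of the 8 genes, 5 reached 1 TPM in both libraries, against 60.9% of all protein-coding genes. These were Ntf3, Gfra1, Ntrk2, Ntf5 and Bdnf, while Gdnf, Ntrk3 and Ret were under 1 TPM in both libraries with reads in each. For 2 of these the threshold was near: the upper credibility bound was 1.12 TPM for Gdnf in replicate 1, and 1.02 and 1.62 TPM for Ntrk3. The median of the mean levels was 3.83 TPM over the 8 genes and 4.68 TPM over protein-coding genes. Summed over the 8 genes the level was 62.2 TPM in replicate 1 and 62.9 TPM in replicate 2, and Ntf3, Gfra1 and Ntrk2 together made up 83.5% and 85.5% of it. In bulk tissue a low level from many cells and a high level from few cells cannot be told apart, which holds for every value here.

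**Figure D1:**
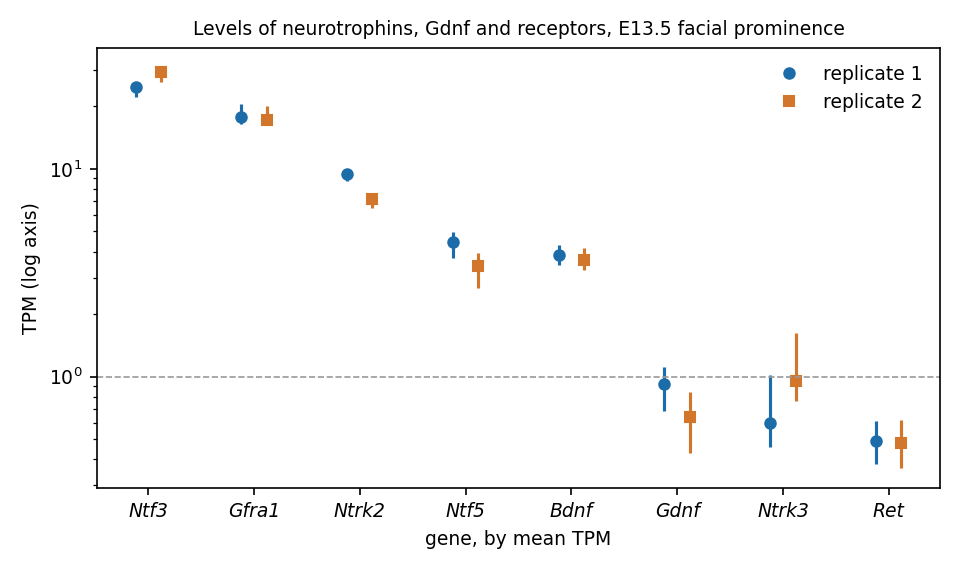
TPM of the 8 genes (log axis) in replicate 1 (circles) and replicate 2 (squares), ordered by mean level. Vertical lines are the deposited credibility intervals, taken as 95%. The dashed line marks 1 TPM. The TPM values of Ntf3, Gfra1, Ntrk2, Ntf5 and Bdnf lie above it in both libraries, and those of Gdnf, Ntrk3 and Ret below. The intervals of Gdnf in replicate 1 and of Ntrk3 in both libraries reach over the line.

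Ntf3, which encodes neurotrophin-3, the survival factor of proprioceptive and many early sensory neurons, had the highest level of the 8 genes. It lies on the minus strand at chr6:126101412-126166910 (GRCm38, as are all positions below). Its level was 24.72 TPM in replicate 1 and 29.39 TPM in replicate 2, a mean of 27.1 ± 3.30 TPM, from 663 and 608 expected counts. This was above 75.7% of protein-coding genes. Ntf3 made up 74.9% and 80.7% of the summed TPM of Ntf3, Bdnf and Ntf5. It was above every other member in both libraries, and its credibility intervals, 22.3 to 26.0 and 26.2 to 30.7 TPM, overlapped with those of none of them.

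Bdnf, which encodes brain-derived neurotrophic factor, lies on the plus strand at chr2:109674700-109727007. Its level was 3.83 TPM in replicate 1 and 3.65 TPM in replicate 2 (3.74 ± 0.127 TPM), from 313 and 228 expected counts. Ntf5, the mouse gene of neurotrophin-4, the other Ntrk2 ligand, lies on the plus strand at chr7:45413695-45417179. It stood at 4.44 and 3.39 TPM (3.92 ± 0.742 TPM), from 175 and 102 expected counts. The 2 ligands of Ntrk2 were thus not told apart: their credibility intervals overlapped in both libraries, and Ntf5 was above Bdnf in replicate 1 and below it in replicate 2. Ntf3 was 6.45-fold above Bdnf in replicate 1 and 8.05-fold above it in replicate 2.

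The reads of the 3 neurotrophin genes came from related but distinct sequences. Aligned residues of the encoded precursors were identical at 45.9% between Bdnf and Ntf3, 52.6% between Bdnf and Ntf5 and 52.1% between Ntf3 and Ntf5. The run of 20 codons without gaps that was most alike among the 3 precursors is shown to let the resemblance be read at the level of the sequenced bases. It encodes a part of the mature factor, at chr2:109724087-109724146 (Bdnf), chr6:126101735-126101794 (Ntf3, minus strand) and chr7:45416007-45416066 (Ntf5), in coding exons. Capitals mark the bases identical in all 3 genes:
Bdnf: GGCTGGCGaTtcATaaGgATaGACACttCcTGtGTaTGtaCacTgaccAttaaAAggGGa
Ntf3: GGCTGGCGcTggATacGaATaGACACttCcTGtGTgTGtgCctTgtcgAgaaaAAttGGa
Ntf5: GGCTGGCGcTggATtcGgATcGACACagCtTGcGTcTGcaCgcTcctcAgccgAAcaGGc
Of the 60 bases, 33 were identical in all 3, as were 13 of the 20 encoded residues.

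Gdnf, which encodes glial cell line-derived neurotrophic factor, lies on the plus strand at chr15:7810846-7837575. It had 0.92 TPM in replicate 1 and 0.64 TPM in replicate 2 (0.78 ± 0.198 TPM), from 66 and 35 expected counts. Its level was above 35.7% of protein-coding genes. Bdnf, Ntf3 and Ntf5 were higher in both libraries with intervals that did not overlap with that of Gdnf; Bdnf, the lowest of them by mean, was 4.16-fold and 5.70-fold higher.

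Ntrk2, the receptor of Bdnf and Ntf5, lies on the plus strand at chr13:58806569-59133970. Its gene level was 9.47 TPM in replicate 1 and 7.15 TPM in replicate 2 (8.31 ± 1.64 TPM), from 1398 and 808 expected counts. Almost all of it was assigned to a transcript that encodes no kinase. Ntrk2-202, the truncated form with 476 residues, had 9.02 and 6.67 TPM, from 1317 and 743 expected counts. Ntrk2-201, the full-length form with 821 residues, had 0.45 and 0.48 TPM, from 80.8 and 64.8 expected counts. The kinase-encoding share of the Ntrk2 transcripts was therefore 4.75% in replicate 1 and 6.71% in replicate 2 (5.73% ± 1.39), and the truncated transcript was 20.0-fold and 13.9-fold above the full-length one. The difference in the gene level between the libraries lay on the truncated transcript, while the full-length transcript had nearly the same TPM in both.

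The Ntrk2 transcripts share 464 whole codons, which cover the extracellular part and the membrane span, and part inside the codon that follows. The last shared base lies at chr13:58878262. Ntrk2-202 then runs into an exon of its own from chr13:58932023, with 35 coding bases. The 12 residues that end Ntrk2-202 include that of the codon split by the junction. This exon lies in an intron of Ntrk2-201, whose next coding base is at chr13:58985802. The bases across this junction are shown because the assignment of reads to the truncated or the full-length receptor starts there. Lower case marks the last 30 bases in common and capitals the first bases of each form alone:
Ntrk2-201: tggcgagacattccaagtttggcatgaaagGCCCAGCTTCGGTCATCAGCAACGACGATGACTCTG
Ntrk2-202: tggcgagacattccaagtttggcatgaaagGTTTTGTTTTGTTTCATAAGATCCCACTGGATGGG
In the GENCODE M21 models, exon bases of only 1 of the listed forms numbered 7007 in Ntrk2-201 and 5109 in Ntrk2-202. The models in the deposited data differ in length, with 8541 nt for Ntrk2-201 and 7002 nt for Ntrk2-202. In M21 they have 8744 and 6846 nt. The deposited tables hold these 2 Ntrk2 transcripts, and GENCODE M21 lists 10, so reads of other forms could only fall on these. Reads of unspliced RNA would also fall in the exon of Ntrk2-202, since it lies in an intron of the other form, and their part in its level was not tested.

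Ntrk3, the receptor of Ntf3, lies on the minus strand at chr7:78175959-78738012. Its gene level was 0.60 TPM in replicate 1 and 0.95 TPM in replicate 2 (0.775 ± 0.247 TPM), from 30 and 38 expected counts. In TPM the kinase-encoding forms held the larger part in both libraries. Transcripts that encode the kinase held 0.38 and 0.50 TPM, a share of 62.3% and 52.6% (57.5% ± 6.83). The truncated Ntrk3-202, with 612 residues, held 0.09 and 0.32 TPM, a share of 14.8% and 33.7%, from 4.14 and 11.4 expected counts. Models with no coding sequence held the other 23.0% and 13.7%. At these counts the split between the Ntrk3 forms is imprecise: the credibility intervals of Ntrk3-201 and Ntrk3-202 overlapped in both libraries. The deposited data hold 6 Ntrk3 transcripts and GENCODE M21 lists 20, so reads of other forms could only fall on these. The leading form, the kinase-encoding Ntrk3-201, had 36.1% and 45.3% of the TPM, and Ntrk3-205, another kinase-encoding form, had 26.2% and 7.37%.

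Full-length and truncated Ntrk3 part after 528 whole codons, at chr7:78356027. The first base of Ntrk3-201 alone lies at chr7:78260414 and that of Ntrk3-202 alone at chr7:78304426. The sequences are shown to set this branch point beside that of Ntrk2, with lower case and capitals as above:
Ntrk3-201: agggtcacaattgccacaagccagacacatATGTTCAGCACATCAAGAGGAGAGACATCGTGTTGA
Ntrk3-202: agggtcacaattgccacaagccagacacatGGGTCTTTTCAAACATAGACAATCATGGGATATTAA
After the branch the coding sequence of Ntrk3-201 goes on for 297 residues and that of Ntrk3-202 for 84. Aligned residues of full-length Ntrk2 and Ntrk3 were identical at 58.8%.

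Ret, the signalling kinase of the Gdnf family receptors, lies on the minus strand at chr6:118151745-118197718. Its level was 0.49 TPM in replicate 1 and 0.48 TPM in replicate 2 (0.485 ± 0.00707 TPM), from 71 and 55 expected counts. Of the 8 genes Ret had the lowest mean, above 32.7% of protein-coding genes. Both Ret transcripts encode the kinase, so its kinase-encoding share was 100% by annotation. They differ in their last residues, as the known short and long Ret isoforms do: Ret-202, with 1073 residues, held 71.4% and 93.8% of the TPM (82.6% ± 15.8), and Ret-201, with 1115 residues, held the rest.

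The Ret forms share 1063 whole codons and part at chr6:118155288, where Ret-202 reads on and Ret-201 splices to chr6:118154010. Counted from the codon split by the junction, the short tail has 10 residues and the long tail 52. Their bases are printed, the long tail only at its start. The tail carries the docking sites by which the isoforms are known to differ:
Ret-202: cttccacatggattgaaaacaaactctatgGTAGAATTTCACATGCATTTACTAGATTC
Ret-201: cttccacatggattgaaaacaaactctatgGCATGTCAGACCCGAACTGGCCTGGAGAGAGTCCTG
The higher share of the short form rests on 53.2 and 52.4 expected counts, against 17.8 and 2.64 for the long form. The credibility intervals of the forms overlapped in both libraries, so they were not told apart.

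**Figure D2:**
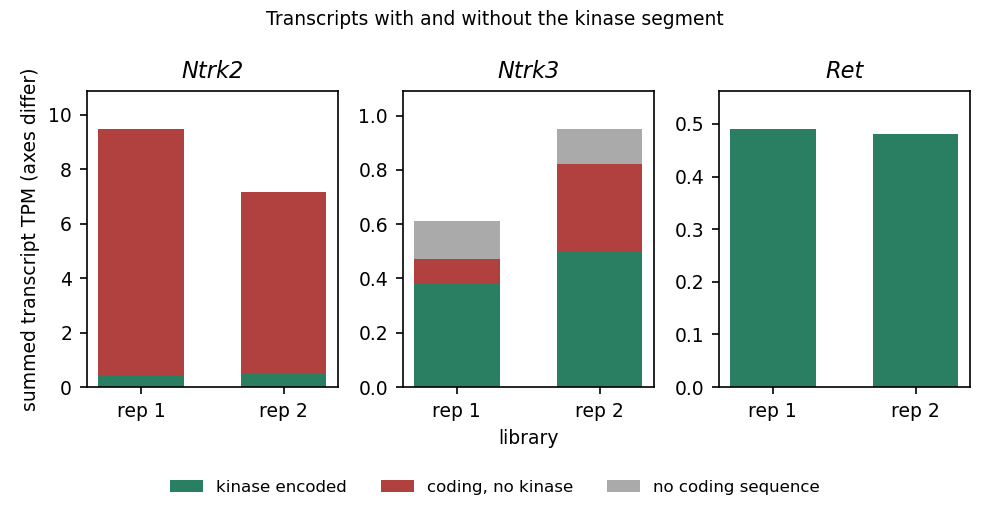
Summed transcript TPM of Ntrk2, Ntrk3 and Ret in each library, stacked by whether the transcript encodes the kinase segment; the linear axes start at 0 and differ between genes. The kinase-encoding part is 4.75% and 6.71% of Ntrk2, 62.3% and 52.6% of Ntrk3 and all of Ret.

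Gfra1, the co-receptor that binds Gdnf, lies on the minus strand at chr19:58235604-58455909. Its level was 17.76 TPM in replicate 1 and 17.23 TPM in replicate 2 (17.5 ± 0.375 TPM), from 1227 and 1029 expected counts. It ranked second of the 8 genes, above 68.1% of protein-coding genes. Models with a complete coding sequence held 13.73 and 15.53 TPM (14.6 ± 1.27 TPM). The remaining 22.6% and 9.87% of the TPM lay on 4 short or incomplete models that took only 4.41% and 1.98% of the counts, among them Gfra1-204 with 3.16 and 1.70 TPM. Gm16277, an antisense gene that overlaps the end of Gfra1, had 3.83 and 1.66 TPM, and whether reads were counted by strand is not known here.

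The leading Gfra1 transcript was Gfra1-203, with 463 residues, at 8.74 and 10.13 TPM or 49.2% and 58.8% of the gene (54.0% ± 6.76). Gfra1-201, with 468 residues, had 2.53 and 3.05 TPM. The forms differ by 15 coding bases that Gfra1-203 lacks, between chr19:58451969 and chr19:58392587. They are printed in capitals, between 30 shared bases on each side in lower case, since the higher form is the one without them:
Gfra1-201: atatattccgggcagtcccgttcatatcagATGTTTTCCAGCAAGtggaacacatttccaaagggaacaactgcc
Gfra1-203: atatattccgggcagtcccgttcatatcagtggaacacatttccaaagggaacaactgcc
The 15 bases are 5 codons. Gfra1-203 was above Gfra1-201 in both libraries, with intervals that did not overlap.

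Transcripts of the ligands differed mainly at their starts. Bdnf is known for many alternative first exons spliced to a common coding exon, and 11 of its transcripts were listed. Bdnf-205, which starts at chr2:109693563, led with 3.07 and 2.25 TPM, 80.2% and 61.8% of the gene (71.0% ± 13.0). Bdnf-209, which starts at chr2:109692436, had 0.32 and 0.95 TPM. Ntf3 had 2 listed transcripts, and they were not told apart, with overlapping credibility intervals in both libraries: Ntf3-201 had 13.33 and 12.01 TPM and Ntf3-202 had 11.39 and 17.38 TPM, a share for Ntf3-202 of 46.1% and 59.1% (52.6% ± 9.23). Ntf5 and Gdnf had 1 listed transcript each, so the deposited data hold no such split for them. GENCODE M21 lists 2 transcripts of Ntf5 and 3 of Ntf3, so forms absent from the deposited data could not be seen.

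Each pair of genes was called apart where the credibility intervals did not overlap in either library and the same gene was higher in both. Of 28 pairs, 24 were apart. In the order of mean levels, Ntf3 was 1.39-fold and 1.71-fold above Gfra1, and Gfra1 was 1.88-fold and 2.41-fold above Ntrk2. Ntrk2 was 2.13-fold and 2.11-fold above Ntf5. The pairs not apart were Ntf5 with Bdnf, Gdnf with Ntrk3, Gdnf with Ret and Ntrk3 with Ret. Gdnf was above Ntrk3 in replicate 1 and below it in replicate 2, so the order of these 2 was not settled. Ret was the lowest in both libraries, but its interval overlapped with that of Gdnf in replicate 2 and with that of Ntrk3 in replicate 1.

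Within a library the ratio of a ligand to its receptor does not depend on library scaling. For Ntf3 and Ntrk3 the ligand was 41.2-fold higher in replicate 1 and 30.9-fold higher in replicate 2, a mean log2 ratio of 5.16 ± 0.29. For Ntrk2 the receptor was higher: it was 2.47-fold and 1.96-fold above Bdnf (log2 ratio of Bdnf to Ntrk2 -1.14 ± 0.24) and 2.13-fold and 2.11-fold above Ntf5 (-1.08 ± 0.01). Counting only kinase-encoding transcripts turned this order around. With them the mean log2 ratio of Bdnf to Ntrk2 was 3.01 and that of Ntf5 to Ntrk2 was 3.06, so each ligand was above the full-length receptor. The same restriction brought Ntrk2 from a mean log2 ratio to Ntrk3 of 3.45 ± 0.76 to 0.09. Kinase-encoding forms had 0.45 and 0.48 TPM in Ntrk2 and 0.38 and 0.50 TPM in Ntrk3, so their order changed between the libraries. Those of Ntrk3 rested on 23.6 and 24.9 expected counts, too few to show that the levels are equal.

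The Gdnf receptor pieces were unequal. Gfra1 was 36.2-fold and 35.9-fold above Ret (log2 ratio 5.17 ± 0.01), and it was 19.3-fold and 26.9-fold above Gdnf (log2 ratio of Gdnf to Gfra1 -4.51 ± 0.34). The small SD of the ratio to Ret is no measure of its precision. The credibility intervals of Ret ran from 0.378 to 0.612 TPM in replicate 1 and from 0.364 to 0.621 TPM in replicate 2. With only the complete Gfra1 models the mean log2 ratio of Gfra1 to Ret was 4.91. Gdnf was 1.88-fold and 1.33-fold above Ret in TPM (0.66 ± 0.35), with overlapping intervals in replicate 2; in expected counts, not divided by length, Ret was the higher one.

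**Figure D3:**
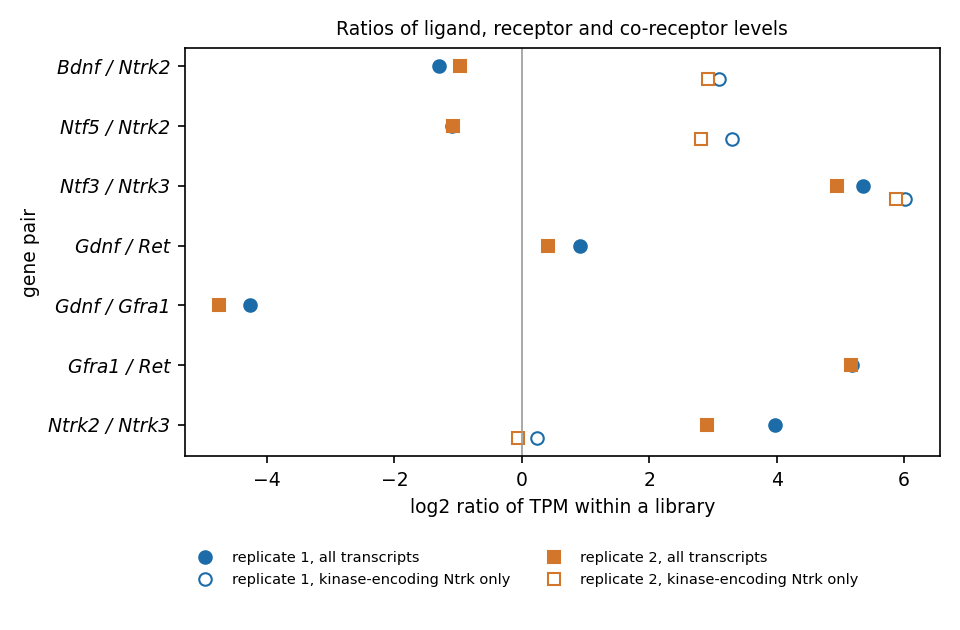
Log2 ratio of TPM within each library for 7 gene pairs, named at the left as numerator and denominator, with filled symbols for all transcripts and open symbols for kinase-encoding Ntrk2 and Ntrk3 transcripts only. Bdnf and Ntf5 lie below Ntrk2 with all transcripts and above it with kinase-encoding ones, and Ntf3 lies above Ntrk3 either way.

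The relatives of these genes, listed by family, were mostly detected: 5 of 6 listed genes of the neurotrophin family and 7 of 9 of the GDNF family reached 1 TPM in both libraries. The share over all protein-coding genes was 60.9%. Ngfr, the p75 receptor that binds all neurotrophins, had 19.05 and 20.91 TPM, above Ntrk2 and Ntrk3 in both libraries. Among the sortilin-related receptors, which bind proneurotrophins or sort cargo, Sorcs2 had 11.14 and 10.07 TPM, Sort1 5.17 and 9.00, Sorl1 5.04 and 6.39, Sorcs1 1.53 and 2.07, and Sorcs3 0.32 and 0.66.

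Among the GDNF family ligands Gdnf was not the highest. Nrtn, the ligand of Gfra2, had 13.81 and 13.62 TPM, and Artn, the ligand of Gfra3, had 2.36 and 2.75 TPM. Pspn, the ligand of Gfra4, had 0.25 and 0.66 TPM from 2 and 4 counts. Of the co-receptors, Gfra4 had 32.15 and 27.19 TPM, above Gfra1, while Gfra2 had 6.90 and 7.21 TPM and Gfra3 had 5.79 and 7.83 TPM. Each of these 4 co-receptors was thus above Ret in both libraries. Gfral, a distant co-receptor of another ligand, was at 4 and 0 counts. Ncam1 and Sdc3, cell-surface proteins known as alternative Gdnf receptors, had 71.14 and 83.41 TPM and 24.58 and 26.58 TPM.

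**Figure D4:**
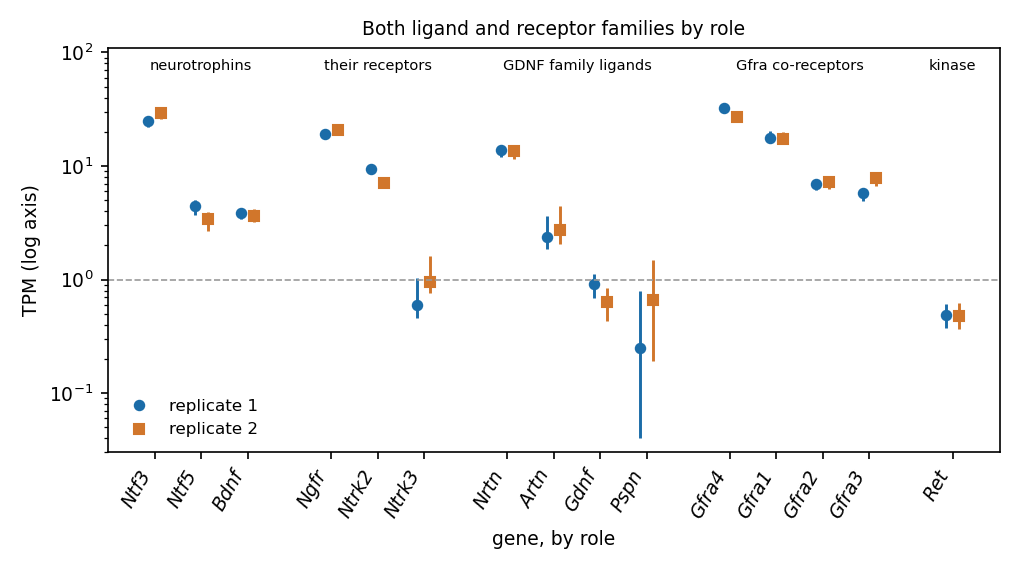
TPM (log axis) of the neurotrophins and receptors described, GDNF family ligands, Gfra co-receptors and Ret in replicate 1 (circles) and replicate 2 (squares). Lines are the deposited credibility intervals, taken as 95%, and 1 TPM is dashed. Ntf3 leads the neurotrophins shown and Ngfr their receptors, and all 4 Gfra co-receptors shown lie above Ret.

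Genes acting before and after the receptors were also counted. Of 20 adaptors and relays that carry Trk and Ret signals, 19 were detected, led by Crk (92.22 and 104.56 TPM), Shc1 (68.57 and 71.67 TPM) and Grb2 (78.87 and 57.57 TPM), and Dok6, a Ret adaptor, was lowest at 0.55 and 0.74 TPM. Of 7 genes that process proneurotrophins, 5 were detected, led by Plat (16.99 and 21.90 TPM), Pcsk5 (19.83 and 18.46 TPM) and Pcsk7 (12.85 and 12.91 TPM), and Mmp7 was at 0 in both libraries. Plg, named after its values were seen, was not detected either, at 0 TPM in replicate 1 and 3.22 TPM in replicate 2. Of 10 genes that respond to ERK signalling, 9 were detected, led by Dusp6 (45.94 and 54.27 TPM), Spry2 (27.57 and 36.93 TPM) and Etv5 (22.75 and 23.96 TPM), with Arc lowest at 0.46 and 0.29 TPM. Many receptors besides Trk and Ret use these adaptors and ERK, so the lists are not specific to them. Over the 5 lists 45 of 52 genes were detected, against 60.9% of all protein-coding genes. The lists were chosen with earlier results of these data known, so this count is not evidence about the pathways.

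The spread behind each level was read from the ratio of replicate 2 to replicate 1 after TMM scaling of the counts, with an exact Clopper-Pearson 95% interval that covers counting error only. After this scaling 3 of the 8 genes were higher and 5 lower in replicate 2. Past 1.5-fold were 2 of 8, Ntrk3 (ratio 1.55, interval 0.935 to 2.59) and Gdnf (0.649, interval 0.418 to 0.992), against 13.2% of all genes with a mean count of 10 or more. Both had few counts, and among all genes with a mean count under 100 the share past 1.5-fold was 38.6%. The interval left out 1 for 4 of 8 genes, against 39.4% of all genes. These were Ntf3 (1.12, interval 1.00 to 1.25), Ntf5 (0.713, interval 0.553 to 0.916), Ntrk2 (0.707, interval 0.648 to 0.772) and Gdnf. Bdnf (0.892), Ret (0.948) and Gfra1 (1.03) had intervals that included 1. The median fold either way was 1.25 over the 8 genes and 1.11 over all genes tested.

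Markers of other tissues moved with the libraries too: all 10 liver markers were past 1.5-fold higher in replicate 2, 24.9-fold in sum, and the lists of sensory neurons, autonomic neurons and Schwann cells with satellite glia were 1.22-fold, 1.41-fold and 1.31-fold higher there in summed TPM. Single genes of these lists did not all move one way. Of 18 sensory neuron genes with a mean count of 10 or more, 5 were past 1.5-fold higher and 2 past 1.5-fold lower in replicate 2, the latter being Tlx3 (0.96 and 0.04 TPM) and Prrxl1 (0.66 and 0.36 TPM), both named after their values were seen. The autonomic sum rested on Gata2 and Gata3, and without them, a split made after seeing the data, the other 9 genes summed to 8.49 TPM in replicate 1 and 6.65 TPM in replicate 2. Of that remainder Hand2 alone, named after its values were seen, had 6.56 and 2.29 TPM. By TPM, 9 of the 11 autonomic neuron genes were higher in replicate 2. Of the 9 Schwann cell and satellite glia genes with that count, 0 were past 1.5-fold. The part of these markers in the differences of the 8 genes was not tested. Scaling to the spike-in totals moved the median log2 ratio of all genes to 0.54, and under it Bdnf, Ntf5, Ntrk2 and Ret were higher in replicate 2 in place of lower, with only Gdnf lower (ratio 0.957). Relative to that median, Bdnf, Ntf5, Ntrk2, Ret and Gdnf stayed below the typical gene. The genes past 1.5-fold were then Ntf3 (1.65), Ntrk3 (2.29) and Gfra1 (1.51), against 43.4% of all genes, and Gdnf was no longer among them.

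**Figure D5:**
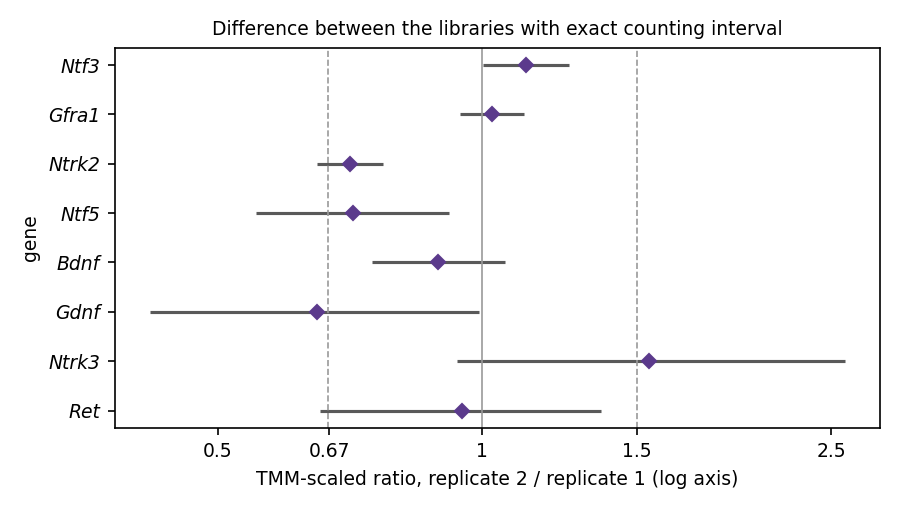
Ratio of replicate 2 to replicate 1 after TMM scaling (log axis) for the 8 genes, ordered by mean TPM, with exact 95% counting intervals as bars; the solid line marks 1 and the dashed lines 1.5-fold either way. Ntrk3 and Gdnf lie past the dashed lines, and the intervals of Ntf3, Ntf5, Ntrk2 and Gdnf leave out 1.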

How the data were processed

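RNA over 200 nt was extracted by the Ambion mirVana method, with 10 ng used for each of the 2 libraries, per the labels, and a linked document is a SMARTer Ultra Low kit manual. The notes deposited with each library name mm10 and GENCODE M4. The aligner, quantifier and strandedness are not given in the sources used here. Per the file headers, the authors' expected counts are estimates of the reads from each gene or transcript, with decimals. Deposited TPM values are scaled to 1000000 over all rows, spike-ins included (13.4% and 9.68% of the TPM). Lower and upper credibility bounds, deposited as a signal on the TPM scale, were taken as 95% intervals. The notes served only for assembly and annotation.

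The 8 genes, the gene lists and the tests were chosen with earlier results of these data known. Of 69691 rows, 26248 bear a number only (0.000171% and 0.000151% of counts) and 96 are ERCC spike-ins (6.27% and 4.45%); both stayed out of library sizes. Names, positions and coding sequences came from GENCODE M21 on GRCm38; 42462 gene rows matched. Models differ between releases: Ntrk3-201 has 3300 nt in the files and 19703 nt in M21, Ret-202 has 7341 and 4497 nt. No protein table was held, so coding bases are printed.

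Detection meant at least 1 TPM in each library. A transcript was kinase-encoding where its coding sequence holds the bases between the HRD and DFG motifs, at chr13:59060358-59060426 in Ntrk2, chr7:78247191-78247259 in Ntrk3 and chr6:118167944-118168012 in Ret. Shares are of transcript TPM. Library ratios used rounded expected counts, TMM factors (edgeR 4.0.16 in R 4.3.3; DESeq2 1.42.0 size factors as an alternative), genes with a mean count of 10 or more, and Clopper-Pearson intervals from scipy 1.17.1 in Python 3.11.15; the step was tested on simulated data. A count of 0 allows up to 3 counts, 0.105 and 0.132 CPM. The 5 pathway lists hold 52 genes and the 11 cell type lists 119, all matched. Named were the 8 genes, all of the 2 family lists, the 3 highest and the lowest gene of other pathway lists, the 2 highest and the lowest of cell type lists, and transcripts with a mean share of 10% or more. Not every gene this rule took is printed, and some related genes are not reported here. Alternatives were other pseudocounts, thresholds, scalings and estimates, and 1 library left out. No p-value is given.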

Additional observations from a re-analysis of the deposited data

How the results depend on the processing

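The SD of 2 libraries does not measure how precise a level is. For Ret it was 0.00707 TPM, while the credibility intervals ran from 0.378 to 0.612 and from 0.364 to 0.621 TPM. Ntrk3, Ret and Gdnf rest on 30 to 71 expected counts a library. Leaving out 1 of 2 libraries gives the other's value, which lies within 1 SD of the mean by construction and says nothing about stability. Of the 87 other alternative values, 52 kept their direction and stayed within the spread between the libraries or, for counts, within 1.5 times, among them the number of genes detected and the number of pairs apart. At 0.5 TPM in both libraries 7 of the 8 genes were detected, which this limit still takes as kept. The share of all genes at 0.5 TPM is not given. The 52 include values that could not change, so they are no measure of stability. The kinase-encoding share of Ret is 100% by annotation, and both listed Ntrk2 transcripts are protein-coding. All 8 genes had a mean count of 10 or more, so lifting that filter changed nothing. Spike-in scaling put 3 genes past 1.5-fold in place of 2, with Ntrk3 the only one in common. No paired analysis was possible because there is 1 group. Rescaling TPM without spike-ins raised all 8 levels by 12.6% to 13.5%, which was over 1 SD for Bdnf, Ntf3, Ret and Gfra1 (4.23, 30.5, 0.549 and 19.8 TPM), and posterior means moved Gfra1 to 18.3 TPM.

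Kinase-encoding transcripts only, a choice made after seeing the data, reversed the log2 ratios of Bdnf and Ntf5 to Ntrk2 to 3.01 and 3.06, and moved Ntf3 to Ntrk3 to 5.95 and Ntrk2 to Ntrk3 to 0.093. Complete Gfra1 models only, also added later, gave 4.91 for Gfra1 to Ret. Counts not divided by length reversed Gdnf to Ret to -0.38 and gave -1.99 and -2.99 for Bdnf and Ntf5 to Ntrk2, 4.23 for Ntf3 to Ntrk3, 4.17 for Gfra1 to Ret and 4.98 for Ntrk2 to Ntrk3. A pseudocount of 1 TPM gave -0.92 for Ntf5 to Ntrk2, 3.98 for Ntf3 to Ntrk3, 0.26 for Gdnf to Ret, -3.38 for Gdnf to Gfra1, 3.64 for Gfra1 to Ret and 2.39 for Ntrk2 to Ntrk3. One of 0.1 TPM gave -1.07 for Ntf5 to Ntrk2 and 4.91 for Gfra1 to Ret. Posterior means gave 4.80 for Ntf3 to Ntrk3, 5.22 for Gfra1 to Ret, and leading shares of 57.4% for Bdnf-205 and 28.8% for Ntrk3-201. Transcript counts gave 53.9% for Ntrk3-201, 66.8% for Gfra1-203 and a kinase-encoding share of Ntrk3 of 72.1%, which was 70.9% over protein-coding transcripts.

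After TMM scaling, 1 of the 8 genes was past 1.5-fold with a mean count of 50 or more, and 0 were past 2-fold. The shares of all genes at these settings are not given, so the counts are not read as a trait of the 8 genes. The interval left out 1 for 4 of 8, against 39.4% of all genes with a mean count of 10 or more. The change with length division follows from the lengths of the models. For other values that moved, the cause was not tested.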
